A study of Mus musculus with 109 samples.

Results

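The genes described here are 10 members of the immediate early response and its feedback in mouse lung: Fos, Fosb, Jun, Junb, Egr1, Atf3, Ier2, Dusp1, Errfi1 and Ptgs2. They were chosen by gene symbol, and 11 of the 25697 probes on the array carry one of these symbols. Each of the 10 genes had a probe that passed the detection filter, among 11346 genes tested. Fos, Jun, Junb, Egr1, Atf3, Dusp1 and Errfi1 were detected on every array and Fosb on all but 7. Ier2 was detected on 12 arrays. Ptgs2 was detected on 6 arrays by probe ILMN_1231600 and on 0 by probe ILMN_2717913, which failed the filter.

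Immediate early genes are transcribed within minutes of a growth factor, cytokine or stress signal, without new protein synthesis, and their transcripts are short-lived. Fos and Fosb proteins pair with Jun and Junb to form the AP-1 transcription factor, while Egr1 and Atf3 are further transcription factors of the same early wave. The wave also includes its own brakes: Dusp1 removes phosphate from MAP kinases, and Errfi1 binds and inhibits the EGF receptor. Ptgs2, or cyclooxygenase-2, makes the precursor of the prostaglandins and is a well-known target of these factors.

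Total RNA of whole mouse lung was hybridised to single-colour bead arrays, 1 array per sample. For 6 months, mice had breathed filtered air or, 5 days per week, the mixed main-stream and side-stream smoke of 3R4F research cigarettes. Wild-type C57BL/6J lungs gave 22 arrays of air and 28 of smoke. Hhip+/- mice, which carry 1 disrupted copy of the hedgehog-interacting protein gene, gave 12 and 14. Fam13a-/- mice, in which Fam13a is knocked out, gave 6 and 13, and wild-type NZW/LacJ lungs gave 8 and 6. The strain label of all Hhip+/- and Fam13a-/- arrays is C57BL6, and the labels give no age, sex, litter or slide and do not say how either gene was disrupted. Whether each array is a different animal is not stated, so the p-values reflect only sample-to-sample spread, which may be partly technical.

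Of the probes on an array, 36.04% to 53.93% were detected, with a median of 49.9%. The lung markers Sftpc, Sftpb, Scgb1a1, Ager, Pecam1 and Foxj1 were detected on every array. The 1 Hhip probe had a median log2 signal of 6.65 in both C57BL/6J air and Hhip+/- air, and the 1 Fam13a probe 6.13 in C57BL/6J air and 5.80 in Fam13a-/- air; where these probes lie against the disrupted parts is not given, so they do not check the labels. For the 14 arrays assigned to NZW/LacJ the title reads C57 and the strain label NZWLacJ, and the strain label was used. H2-Ea, a class II gene that C57BL/6J mice do not express, separated most arrays by that label: 12 of the 14 NZW/LacJ arrays detected it, and 1 of the 28 C57BL/6J smoke arrays did. NZW/LacJ air replicate 5, NZW/LacJ smoke replicate 5 and C57BL/6J smoke replicate 6 thus go against their strain label, and results that rest on them are given with and without them. In whole lung, fewer cells of a type and less RNA per cell cannot be told apart.

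Promoter sequence is shown because the members varied together between arrays, as described after the group levels, and because Dusp1 and Errfi1 hold the same complete site. RefSeq promoter windows of the GRCm38.p6 build, from 250 bases before to 50 after a start site, were found for 8 of the 10 genes. Only the 250 bases before the start site were searched for motifs, in the members and in all promoters. The 150 bases before the start site are printed 5′ to 3′ for 5 of them, for Errfi1 at 1 of its 2 listed start sites. Capitals mark TGACG on either strand, the half-site of the cAMP response element that Atf and Creb factors recognise.
Fos, chr12:85473740-85473889, plus strand: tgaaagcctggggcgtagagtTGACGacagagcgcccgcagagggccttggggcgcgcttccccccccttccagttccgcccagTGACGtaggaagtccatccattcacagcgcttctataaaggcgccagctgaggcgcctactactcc
Dusp1, chr17:26508473-26508622, minus strand: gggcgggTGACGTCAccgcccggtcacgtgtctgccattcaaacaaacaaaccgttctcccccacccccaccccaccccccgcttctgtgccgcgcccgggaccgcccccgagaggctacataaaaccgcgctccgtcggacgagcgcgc
Errfi1, chr4:150854920-150855069, plus strand: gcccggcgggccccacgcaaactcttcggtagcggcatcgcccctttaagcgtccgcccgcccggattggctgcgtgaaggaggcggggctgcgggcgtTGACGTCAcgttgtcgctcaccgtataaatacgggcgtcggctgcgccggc
Atf3, chr1:191183334-191183483, minus strand: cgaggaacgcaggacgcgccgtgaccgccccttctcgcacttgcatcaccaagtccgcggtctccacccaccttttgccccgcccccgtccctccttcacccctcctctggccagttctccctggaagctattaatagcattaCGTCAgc
Ptgs2, chr1:150099881-150100030, plus strand: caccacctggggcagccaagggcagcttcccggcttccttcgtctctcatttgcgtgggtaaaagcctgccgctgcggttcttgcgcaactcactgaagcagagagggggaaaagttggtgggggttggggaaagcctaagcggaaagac

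The full cAMP response element, TGACGTCA, lay in the windows of Dusp1 and Errfi1, that is in 2 of 8 genes and in 1.55% of 32817 promoters. It began 143 bases before the start site in Dusp1 and 51 bases before it in Errfi1. The half-site TGACG, which the full site contains and which was added after the sequences had been read, lay in the windows of 6 of 8 genes (Fos, Fosb, Junb, Atf3, Dusp1 and Errfi1) and in 17.7% of all promoters. Fos held it 129 and 66 bases before its start site and Atf3 on the opposite strand, 7 to 3 bases before it. The core of the aryl hydrocarbon receptor site, GCGTG, lay in the windows of 5 of 8 genes (Fos, Junb, Atf3, Errfi1 and Ptgs2) and in 28.1% of all. The member counts are per gene and the shares per promoter window, and Errfi1 holds its sites in 1 of its 2 windows. The Egr site, GCGTGGGCG or GCGGGGGCG, lay in the Fosb window and in 3.06% of all. The AP-1 site TGAGTCA and the serum response factor's CArG box lay in the searched bases of 0 of 8 genes and in 4.46% and 1.47% of all. All motifs were searched on both strands of the 250 bases before the start site, so sites elsewhere could not be found. Egr1 and Ier2 had no window, and a match describes the letters in the window, not binding.

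In NZW/LacJ lungs Atf3, Egr1 and Errfi1 were higher with smoke than in air, and Ptgs2 was detected on 4 smoke arrays and no air array, while none of the 10 genes passed the test for smoke in C57BL/6J wild type, Hhip+/- or Fam13a-/-. The C57BL/6J comparison is the largest, with 50 arrays. The plot of every array by group shows wide, overlapping clouds in the 3 units of C57BL/6J strain, and higher NZW/LacJ smoke medians for Fos, Egr1, Atf3, Dusp1 and Errfi1. The threshold was a Benjamini-Hochberg adjusted p of 0.05 over all 11346 genes in limma, and log2 differences are of normalized signal. No member's smoke and air arrays were fully apart in any of the 4 units, where 0.0264% of all genes were in C57BL/6J, 0.0441% in Hhip+/-, 0.353% in Fam13a-/- and 0.0441% in NZW/LacJ.

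**Figure D1:**
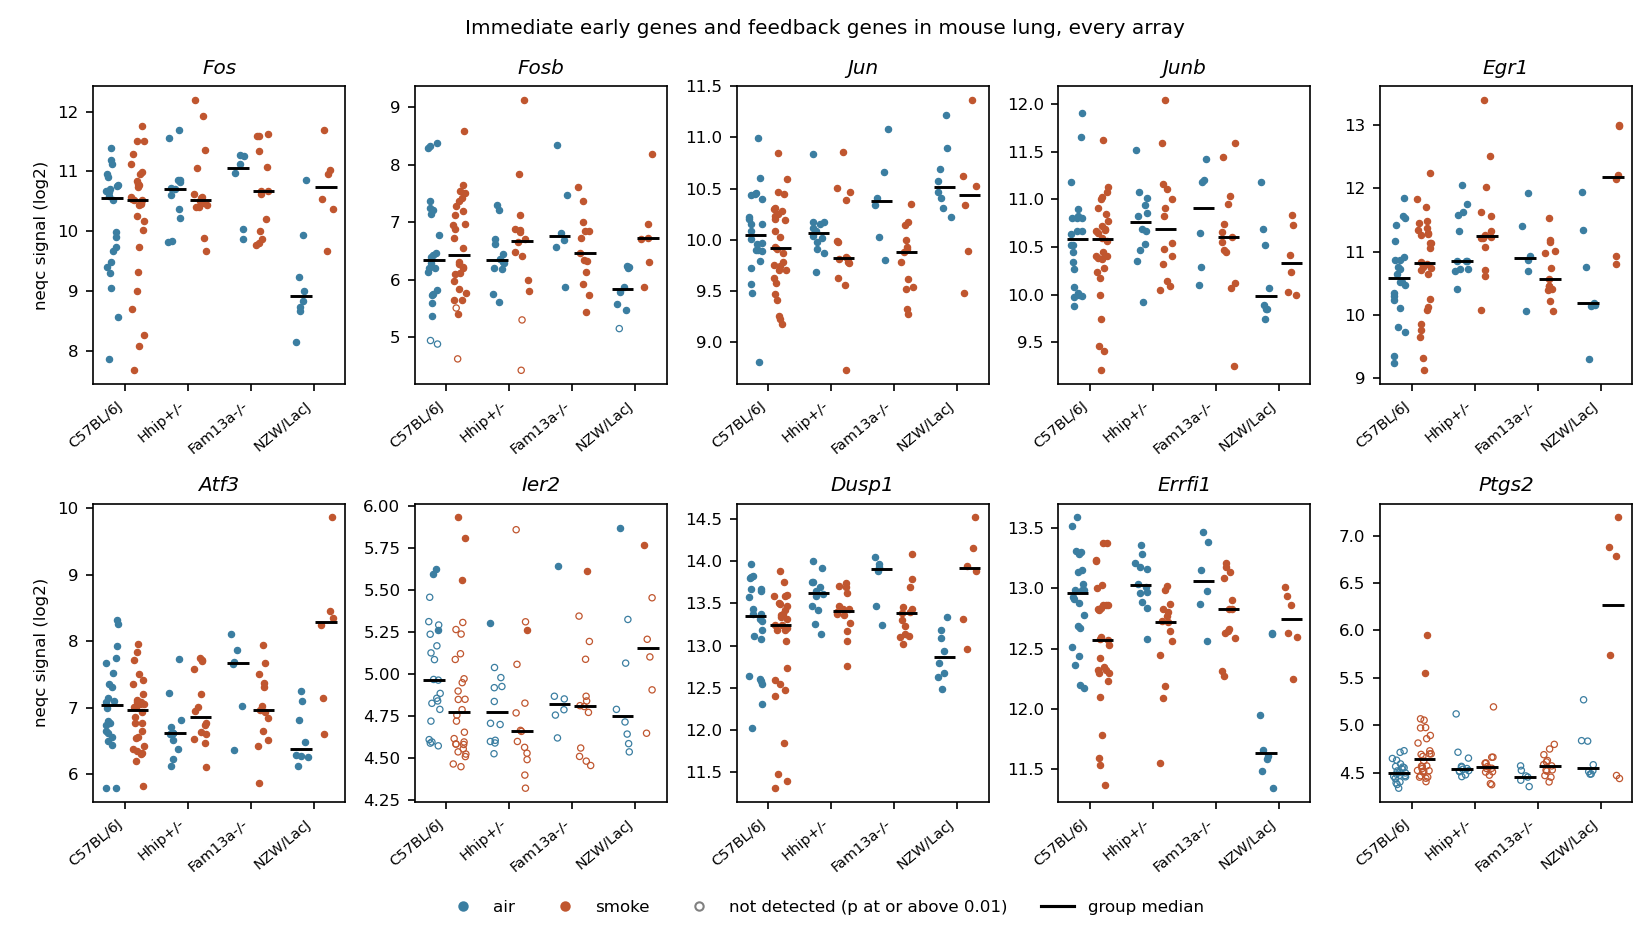
Normalized log2 signal (vertical axis) of the 10 genes on every array, by strain or genotype (horizontal axis) and exposure, with a bar at the median of each group and open points where the probe was not detected. Fos in NZW/LacJ has a median of 8.92 in air and 10.74 with smoke, and Ptgs2 is detected on 4 NZW/LacJ smoke arrays and 2 C57BL/6J smoke arrays.

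Fos is the best known early gene of the AP-1 family. In C57BL/6J its log2 signal ran from 7.87 through a median of 10.56 to 11.39 in air and from 7.68 through 10.52 to 11.76 with smoke. In Hhip+/- it ran from 9.82 through 10.72 to 11.70 in air and from 9.68 through 10.53 to 12.20 with smoke. In Fam13a-/- the values were 9.87, 11.05 and 11.27 in air and 9.78, 10.67 and 11.62 with smoke. Smoke and air thus covered nearly the same range in these 3 units, and the differences were 0.10 ± 0.24, 0.05 ± 0.33 and -0.07 ± 0.41 (log2, SE). In NZW/LacJ air, Fos ran from 8.16 through 8.92 to 10.85, the lowest median of the 8 groups, and with smoke from 9.68 through 10.74 to 11.70. All 6 NZW/LacJ smoke arrays lay above the air mean, but air replicates 3 and 8, at 9.93 and 10.85, lay inside the smoke range. The difference of 1.53 ± 0.45, or 2.89-fold, had an adjusted p of 0.0757 and did not pass.

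Fosb, a close relative of Fos, Jun and Junb differed less. Group medians of Fosb ran from 5.83 in NZW/LacJ air to 6.75 in Fam13a-/- air, those of Jun from 9.82 in Hhip+/- smoke to 10.52 in NZW/LacJ air, and those of Junb from 9.98 in NZW/LacJ air to 10.92 in Fam13a-/- air. For smoke in NZW/LacJ the differences were 0.98 ± 0.45 for Fosb (adjusted p = 0.325), -0.23 ± 0.23 for Jun (adjusted p = 0.707) and 0.15 ± 0.28 for Junb (adjusted p = 0.867). The 95% interval for Jun, -0.69 to 0.23, does not reach that of Atf3, 0.90 to 2.17. Jun in Fam13a-/- had the lowest unadjusted p of this subfamily outside NZW/LacJ. It ran from 9.80 through 10.38 to 11.08 in air and from 9.27 through 9.88 to 10.35 with smoke, and all 13 smoke arrays lay below the air mean. The difference was -0.58 ± 0.21, with an unadjusted p of 0.00671 and an adjusted p of 0.12.

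Egr1, a zinc-finger factor, had a log2 signal from 9.23 through 10.58 to 11.85 in C57BL/6J air and from 9.12 through 10.81 to 12.24 with smoke. In Hhip+/- it ran from 10.40 through 10.85 to 12.05 in air and from 10.07 through 11.25 to 13.41 with smoke, and in Fam13a-/- from 10.05 through 10.90 to 11.93 and from 10.05 through 10.57 to 11.54. In NZW/LacJ it ran from 9.30 through 10.18 to 11.94 in air and from 10.80 through 12.18 to 13 with smoke. Each of the 6 smoke arrays lay above the air mean of 10.50, and 4 of them lay above every air array. Egr1 was 1.51 ± 0.38 higher with smoke in NZW/LacJ, 2.85-fold, with an adjusted p of 0.0304.

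Atf3 is a stress-induced factor of the ATF and CREB family. It ran from 5.79 through 7.04 to 8.32 in C57BL/6J air and from 5.83 through 6.97 to 7.96 with smoke, a difference of -0.15 ± 0.17. Medians were 6.61 and 6.85 in Hhip+/- and 7.67 and 6.97 in Fam13a-/- (air, then smoke). In NZW/LacJ air it ran from 6.12 through 6.38 to 7.24, and with smoke from 6.60 through 8.29 to 9.86. Smoke replicates 1, 2, 3 and 6 lay between 8.24 and 9.86, above every NZW/LacJ air array, and replicates 4 and 5 lay at 6.60 and 7.14, inside the air range. Atf3 was 1.53 ± 0.32 higher, 2.90-fold, with an adjusted p of 0.00531.

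Ier2, a small nuclear protein of the early response, was near background: group medians ran from 4.66 to 5.15 and each group had 1 to 3 arrays that detected it. With all arrays no comparison of Ier2 passed. Without the 2 doubted NZW/LacJ arrays, Ier2 passed between the smoke groups of NZW/LacJ and C57BL/6J (adjusted p = 0.046), with values that most arrays of both groups did not detect.

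Dusp1, the MAP kinase phosphatase, ran from 12.02 through 13.35 to 13.97 in C57BL/6J air and from 11.31 through 13.24 to 13.89 with smoke, so the lowest arrays of the series were C57BL/6J smoke arrays. In NZW/LacJ it ran from 12.49 through 12.87 to 13.34 in air and from 12.96 through 13.92 to 14.52 with smoke. The differences were -0.23 ± 0.14 in C57BL/6J and 0.91 ± 0.27 in NZW/LacJ, with adjusted p of 0.72 and 0.0787. Neither passed the threshold.

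Errfi1, the EGF receptor's inhibitor, differed by strain in air. It ran from 12.17 through 12.96 to 13.59 in C57BL/6J, from 12.58 through 13.03 to 13.36 in Hhip+/- and from 12.56 through 13.07 to 13.47 in Fam13a-/-. NZW/LacJ air had a lower median, from 11.34 through 11.64 to 12.63, and its replicates 1 and 5, at 12.63 and 12.62, lay inside the air ranges of the other 3 units. With smoke the medians were 12.58, 12.73, 12.83 and 12.75 in C57BL/6J, Hhip+/-, Fam13a-/- and NZW/LacJ. Smoke minus air was -0.36 ± 0.12 in C57BL/6J (unadjusted p = 0.00289, adjusted p = 0.167) and -0.45 ± 0.16 in Hhip+/-, where all 14 smoke arrays lay below the air mean (unadjusted p = 0.00646, adjusted p = 0.469). In NZW/LacJ it was 0.86 ± 0.22, or 1.81-fold, and passed with an adjusted p of 0.0368.

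Ptgs2, the prostaglandin-forming enzyme, was near background in most lungs. It was detected on NZW/LacJ smoke replicates 1 to 4, at log2 signals of 6.79, 7.19, 5.75 and 6.88, and on C57BL/6J smoke replicates 1 and 6, at 5.55 and 5.95. On the other arrays it was not detected, and the highest air array of any strain read 5.27. NZW/LacJ smoke replicates 5 and 6 read 4.47 and 4.44, at the air level. C57BL/6J smoke replicate 6 is the array of that group that also detected H2-Ea. Since 0 of 8 NZW/LacJ air arrays detected the probe, the difference is a bound: smoke was at least 1.41-fold higher, with an adjusted p of 3.87e-05 and group means of 5.92 and 4.69. The bound sets the mean of the smoke arrays against, per air array, the higher of the lowest detected signal and the probe's own. The probe passed the filter of 6 arrays only through these 6 smoke arrays, so its place among the genes tested depends on where it was high, and its call is given as a description. With no detection filter, over 18309 genes, its adjusted p was 6.12e-05. The other probe of the gene, ILMN_2717913, read 4.396, 4.584, 4.34 and 4.337 on NZW/LacJ smoke replicates 1 to 4. It read 4.293 to 4.435 in NZW/LacJ air and was detected on none of these arrays.

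In all, 0 of 10 members passed for smoke in C57BL/6J, where 0.952% of all genes did, with 2 members at an unadjusted p under 0.05 in limma. The counts were 0 of 10 in Hhip+/-, against 0.247% of all genes and 1 member unadjusted, and 0 of 10 in Fam13a-/-, against 2.18% and 1 member. Without the 3 arrays whose H2-Ea goes against the strain label, an alternative chosen after seeing the data, the C57BL/6J count was again 0, against 1.04%. In NZW/LacJ 4 of 10 passed, or 3 of the 9 other than Ptgs2, all higher, where 0.987% of all genes passed in either direction and 0.529% were higher. The median log2 difference of those 9 members was -0.11 in C57BL/6J, 0.02 in Hhip+/-, -0.28 in Fam13a-/- and 0.91 in NZW/LacJ, where that of all genes was -0.05. Smoke exposure itself registered in all 4 units: Nqo1, an antioxidant enzyme, was 4.77-, 5.45-, 5.52- and 3.02-fold higher in C57BL/6J, Hhip+/-, Fam13a-/- and NZW/LacJ, each past the threshold. Cyp1b1, a second exposure marker, ordered the units otherwise, at 7.8-, 3.8-, 2.8- and 10.6-fold higher. It passed in each unit but Fam13a-/- (adjusted p = 0.0962).

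**Figure D2:**
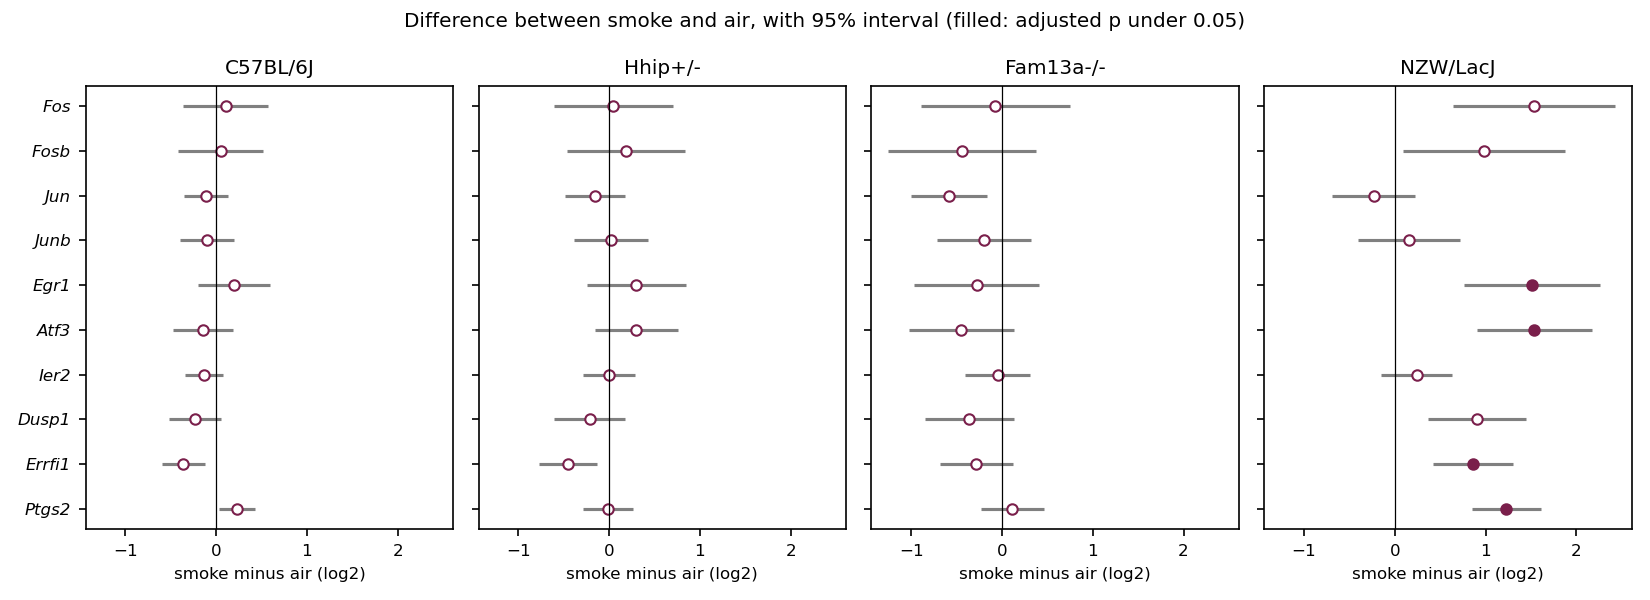
Log2 difference between smoke and air (horizontal axis) for the 10 genes (vertical axis) in each strain or genotype, as the fitted value with its 95% interval; filled points passed the adjusted threshold. The 4 filled points are Egr1, Atf3, Errfi1 and Ptgs2 in NZW/LacJ, at 1.51, 1.53, 0.86 and 1.23; the point of Ptgs2 is fitted on air arrays that did not detect it and is not a measured size.

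The NZW/LacJ result rests on 14 arrays and on the estimate of spread. When the 14 arrays were fitted alone, with 12 residual degrees of freedom, the differences were the same and 0 of 10 members passed in limma, as did 0 of 11346 genes, while 7 members had an unadjusted p under 0.05. Leaving out each array in turn left Atf3 past the threshold in 13 of 14 fits, and Egr1 and Errfi1 in 8 each. Ptgs2 passed in 14, which is a description, since only smoke arrays brought it past the filter. Smoke replicate 2 carried the most: without it Atf3 had an adjusted p of 0.149, Egr1 0.233 and Errfi1 0.197, and only Ptgs2 passed. That array also had the lowest share of detected probes of the 14, 45.1%, where the others had 46.07% to 53.93%. The count fell to 2 without smoke replicate 1, smoke replicate 3, air replicate 2 or air replicate 6, and rose to 6 without air replicate 3 or smoke replicate 5. How many of all genes passed in each of these fits is not given, so no share stands beside these counts. Median scaling in place of quantile normalization left 2 members past the threshold, Atf3 and Ptgs2, and moved the median of all genes to -0.12. With that scaling 6 of 11346 genes passed in all, against 112 in the main fit.

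The arrays of NZW/LacJ air replicates 3 and 4 and smoke replicates 1 to 4 carry 6 consecutive sample numbers, 36 to 41, and all 4 arrays of the strain with detected Ptgs2 are among them. The labels do not say what the numbers mean. Within these 6 arrays smoke minus air was 2.12 for Atf3, 1.20 for Errfi1 and 1.23 for Egr1, with 4 smoke and 2 air arrays. Outside them, with the arrays in doubt left out, 1 smoke array stood against 5 air arrays, and its difference was 1.62 for Atf3, 1.12 for Errfi1 and 1.81 for Egr1. Ptgs2 was thus detected in the smoke arrays inside the run of numbers and not in the smoke array outside it. The differences of Atf3, Egr1 and Errfi1 were positive in both. Inside the run, the smoke arrays of Atf3 and Errfi1 lay above its air arrays. For Egr1 the lowest smoke array, at 10.93, lay below the highest air array, at 11.34. With this run as a term and without the 2 doubted NZW/LacJ arrays, Atf3 and Errfi1 passed (adjusted p = 0.00398 and 0.0208) and Egr1 did not. Ptgs2 also passed (adjusted p = 0.00331), as a description, since only smoke arrays brought it past the filter. With Ptgs2 counted, 3 of 10 members passed where 0.317% of all genes did. With the term and all arrays, Atf3 and Errfi1 passed, and Ptgs2 had an adjusted p of 0.0598.

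Without the 2 doubted NZW/LacJ arrays, 7 air and 5 smoke arrays remained, and the same 4 members passed, Ptgs2 among them, against 2.54% of all genes. The call of Ptgs2 is a description here too. The differences were then larger: 1.80 for Atf3, 1.71 for Egr1 and 0.94 for Errfi1. The bound for Ptgs2 was then at least 1.77-fold. Nqo1 of air replicate 5 and Cyp1b1 of smoke replicate 5 also stood apart from their groups. Air replicate 5 had a log2 signal of 7.64 for Nqo1, where the other air arrays read 5.03 to 6.21 and the smoke arrays 7.11 to 8.19, and of 9.36 for Cyp1b1, the highest of the air arrays. Smoke replicate 5 read 7.38 for Cyp1b1, below the air mean of 7.81 and the other smoke arrays, at 10.48 to 13.06. Its Nqo1 did not go the same way: at 7.11 it was the lowest smoke array but above every air array other than air replicate 5.

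**Figure D3:**
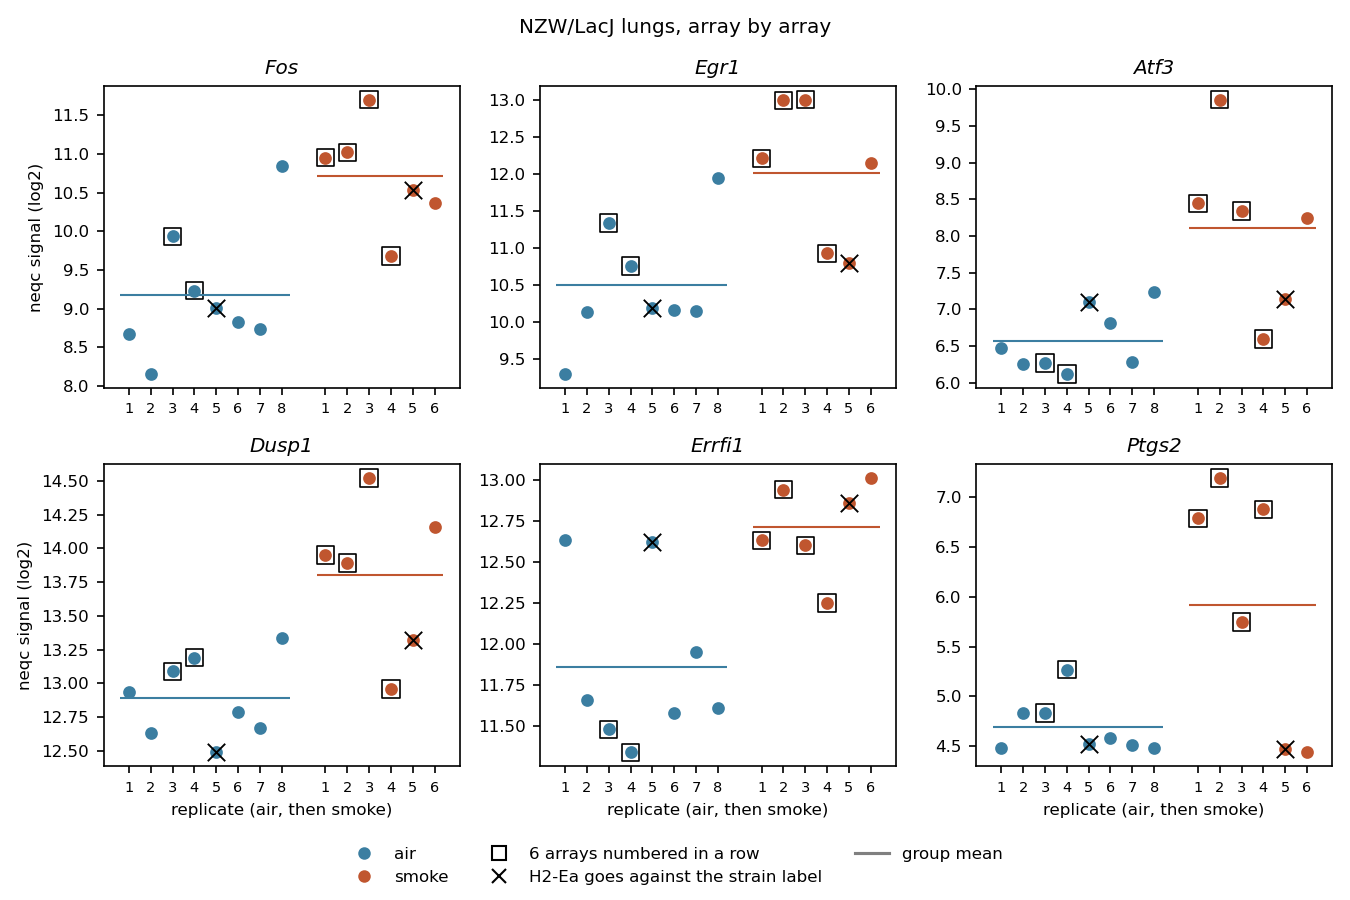
Normalized log2 signal (vertical axis) of 6 genes on each NZW/LacJ array, by replicate (horizontal axis, 8 air then 6 smoke), with squares on the 6 arrays numbered in a row, crosses on the 2 arrays whose H2-Ea goes against the strain label, and lines at the group means. Ptgs2 is at 5.75 to 7.19 on smoke replicates 1 to 4 and at 4.44 to 4.47 on the others.

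Whether smoke acted differently in NZW/LacJ than in C57BL/6J was tested as the difference of the smoke effects. It was larger in NZW/LacJ for Atf3, by 1.68 ± 0.36, and Errfi1, by 1.22 ± 0.25, each with an adjusted p of 0.0126. Ptgs2 also passed (adjusted p = 0.0126), but it has no measured size here, since it was detected on 0 of 22 C57BL/6J air, 2 of 28 C57BL/6J smoke and 0 of 8 NZW/LacJ air arrays. The count was thus 3 of 10, or 2 of the 9 other than Ptgs2, where 0.414% of all genes passed. With the run of sample numbers as a term, 1 of 10 passed, Errfi1 (adjusted p = 0.00849, against 0.0567 for Atf3 and 0.714 for Ptgs2), where 0.0441% of all genes did. With that term and without the 2 doubted arrays, Atf3 and Errfi1 passed (adjusted p = 0.00866 and 0.00271) and Ptgs2 did not (0.164), against 0.159% of all genes. Dusp1 had a difference of 1.14 ± 0.31 and an adjusted p of 0.0606. Fos and Egr1 had differences of 1.43 ± 0.51 and 1.31 ± 0.43, with adjusted p of 0.217 and 0.166. The smoke effects of these 2 genes were thus not shown to differ between the strains. Without the 2 doubted arrays, Dusp1 also passed, at 1.18 with an adjusted p of 0.0363, and the count was 4 with Ptgs2, against 1.75% of all genes. Without the 3 arrays it was 4 again, against 1.75%. In a fit of these 4 groups alone none of the 10 passed, with adjusted p of 0.0624 for Atf3, 0.0684 for Errfi1 and 0.115 for Ptgs2. Without NZW/LacJ smoke replicate 2, 0 members passed, without smoke replicate 1 only 1 did, and without smoke replicate 5 the count was 5. No share of all genes is given for these fits, so the member counts stand alone. With median scaling 0 members passed, with an adjusted p of 0.0894 for Atf3. Against C57BL/6J, the smoke effect differed for 0 of 10 members in Hhip+/-, where 0% of all genes passed, and for 0 of 10 in Fam13a-/-, where 0.0529% did, and in both no member had an unadjusted p under 0.05.

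In air, the strains differed at 3 members, a comparison in which 43.3% of all genes passed. In NZW/LacJ, Errfi1 fell below C57BL/6J by 1.05 ± 0.17 (adjusted p = 3e-07) and Fos by 0.97 ± 0.35 (adjusted p = 0.017). Jun was higher by 0.55 ± 0.18 (adjusted p = 0.00817). All 8 NZW/LacJ air arrays lay below the C57BL/6J air mean for Errfi1 and above it for Jun. With median scaling Errfi1 alone passed, with adjusted p of 0.0505 for Fos and 0.0645 for Jun. How many of all genes passed with that scaling is not given, so this count has no share beside it. With smoke, 4 members were higher in NZW/LacJ than in C57BL/6J, or 3 of the 9 other than Ptgs2, where 50.7% of all genes differed. These 4 were Egr1 by 1.23, Atf3 by 1.20, Dusp1 by 0.81 and Ptgs2, which 2 of 28 C57BL/6J smoke arrays detected. Errfi1 and Fos, lower in NZW/LacJ air, had differences of 0.17 and 0.46 with smoke (adjusted p = 0.453 and 0.314). In both comparisons the share of all genes that passed exceeded that of the members. Without the 2 doubted arrays, 3 of 10 passed in air, against 46.7% of all genes, and 6 of 10 with smoke, against 56.9%, with Jun (0.60, adjusted p = 0.00758) and Ier2 added. With the run of sample numbers as a term, 1 member passed with smoke, Atf3, against 12.7%.

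Against C57BL/6J in air, 0 of 10 members passed in Hhip+/-, where 0.0617% of all genes did, and 0 of 10 in Fam13a-/-, where 0% did, with 2 and 1 members at an unadjusted p under 0.05. With smoke the counts were 0 of 10 in Hhip+/-, against 1.87%, and 0 of 10 in Fam13a-/-, against 6.19%, again with 2 and 1. Dusp1 had positive differences in all 4 of these comparisons, from 0.39 to 0.54, with adjusted p from 0.143 to 0.767. Ordered by median, neighbouring groups differed in mean by more than the larger of their SDs in 3 of 70 neighbouring pairs of the 10 genes. In these 3 pairs, of Fos, Fosb and Errfi1, NZW/LacJ air was the lower group. Such pairs were not counted over all genes, of which 43.3% differed between NZW/LacJ and C57BL/6J in air.

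Arrays of the same group differed widely in these genes. The residual SD between arrays of a group was 0.85 for Fos and for Fosb, 0.72 for Egr1, 0.60 for Atf3, 0.53 for Junb, 0.51 for Dusp1, 0.43 for Jun and 0.42 for Errfi1, on the log2 scale, where the median of all genes was 0.34. That of Fos was larger than for 98.7% of genes. A smoke difference of a given size is therefore harder to detect for Fos than for most genes.

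The deviations went together. Over all arrays, the deviation of Fos from its group mean correlated with that of Dusp1 (Pearson r = 0.81, Spearman rho = 0.77), Egr1 (0.80 and 0.77), Fosb (0.70 and 0.68), Junb (0.60 and 0.54), Errfi1 (0.53 and 0.44) and Atf3 (0.46 and 0.45). Each of these 6 had a permutation p of 1e-05 for r, the smallest that 100000 permutations within groups can give, and an adjusted p of 1.5e-05 over the 9 genes. Ier2 followed at r = 0.27 and rho = 0.38 (adjusted permutation p = 0.00856 and 0.000219). Ptgs2, at r = 0.12 and rho = 0.08, and Jun, at 0.09 and 0.04, had adjusted permutation p of 0.237 and 0.362 for r and 0.474 and 0.71 for rho. With median scaling r was 0.34 for Jun (adjusted permutation p = 0.000926) and 0.03 for Ier2 (0.777), so both calls depend on the scaling. Without the 2 arrays whose gene lies farthest from its median, r was 0.77 for Dusp1, 0.78 for Egr1, 0.68 for Fosb, 0.59 for Junb, 0.51 for Errfi1, 0.46 for Atf3 and 0.37 for Ier2.

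**Figure D4:**
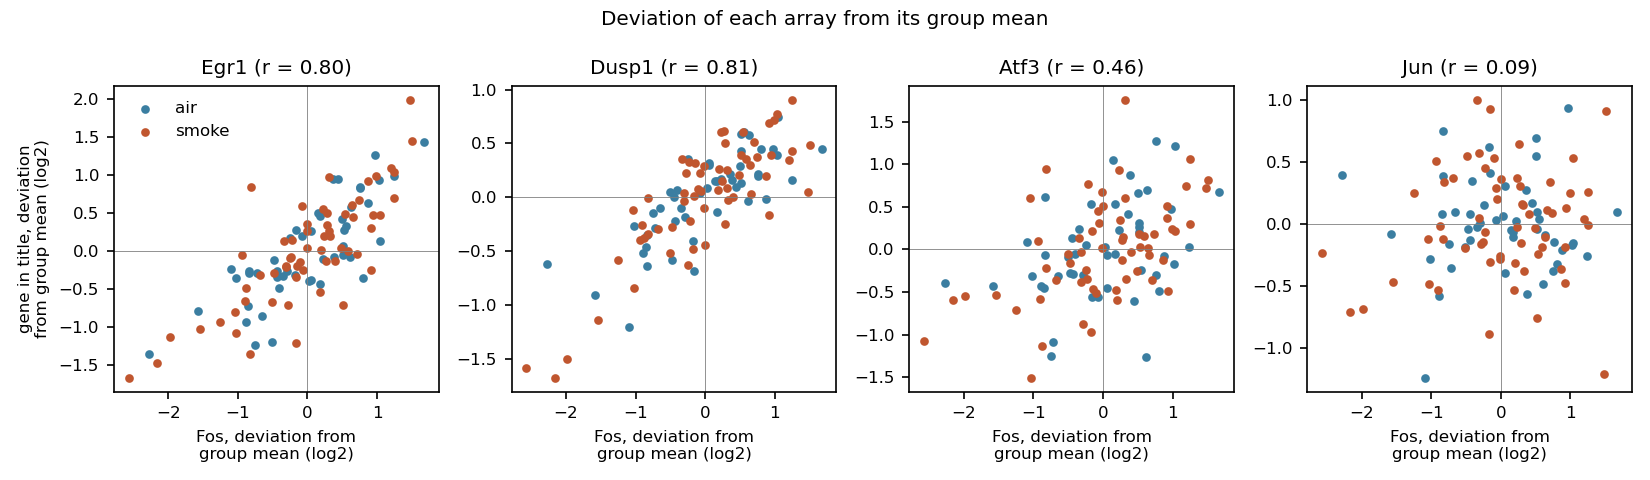
Deviation from the group mean on the log2 scale for Fos (horizontal axis) and for Egr1, Dusp1, Atf3 or Jun (vertical axis), 1 point per array, coloured by exposure. Egr1 and Dusp1 rise with Fos (r of 0.80 and 0.81), and Jun has an r of 0.09 (0.34 with median scaling).

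Within single groups, Fos correlated positively with Egr1, Dusp1, Fosb and Atf3 in 8 of 8, with r from 0.38 to 0.94 for Egr1 and from 0.47 to 0.97 for Dusp1. With Jun it was positive in 4 of 8, from -0.67 to 0.84. Among the 7 well-detected members other than Jun, the 21 pairs had a median r of 0.53 and a lowest of 0.34. Of the pairs without Fos, Fosb and Egr1 (0.70), Dusp1 and Errfi1 (0.69) and Junb and Atf3 (0.65) were among the closer ones. These are descriptions over arrays that share normalization.

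**Figure D5:**
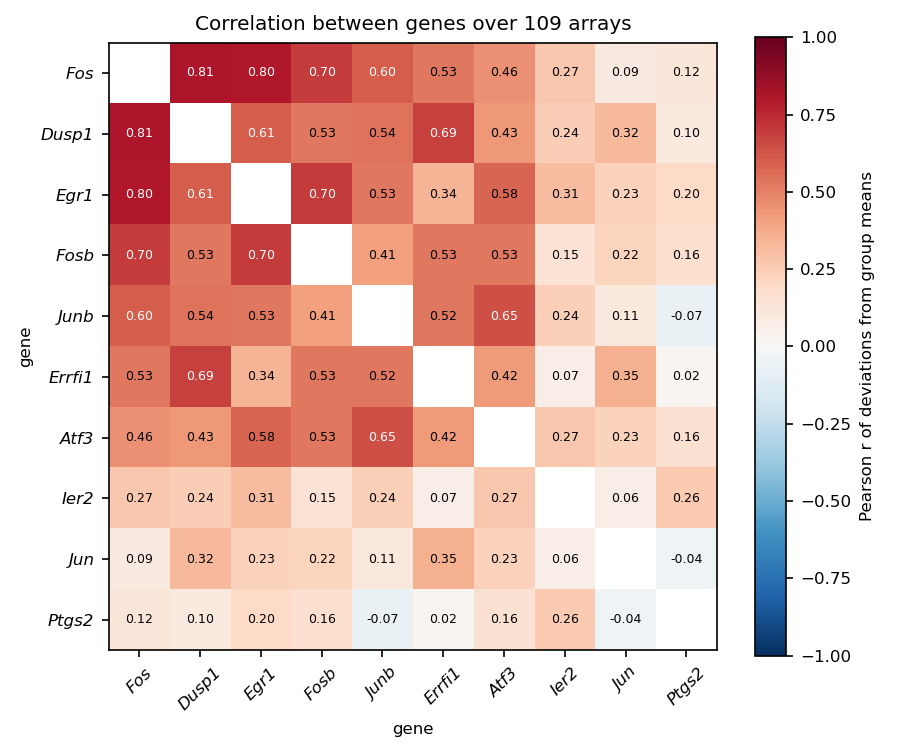
Pearson correlation (colour and number) of deviations from the group means between each pair of the 10 genes (both axes), over all arrays. Fos, Dusp1, Egr1, Fosb, Junb, Errfi1 and Atf3 form a block of positive values from 0.34 to 0.81, and Jun, Ier2 and Ptgs2 lie outside it.

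The share of probes detected on an array, a measure of array quality, correlated with Fosb (r = 0.31, rho = 0.20, adjusted permutation p = 0.0462 for r), and with no other member past the threshold over the 10 relations. Without the 2 arrays farthest from the median share, r for Fosb was 0.14, so that relation rests on them. For Fos r was 0.23 and rho 0.22, with an adjusted permutation p of 0.0728 for r.

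Among genes outside the 10, those whose deviations were most like the members' mean deviation were Kcne4 (r = 0.76), Zfp36 (0.72), Nfil3 (0.68), Cebpb (0.63), Ccn1 (0.63), Klf2 (0.60), Pim3 (0.60) and Csrnp1 (0.60), over all arrays. The median r of all genes was -0.01 and 0.326% exceeded 0.5. Zfp36 encodes an RNA-binding protein that destabilises AU-rich transcripts, and Ccn1 a secreted matrix protein. For smoke in NZW/LacJ, Ccn1 was 1.23 ± 0.31 higher (adjusted p = 0.0332) and the other 7 did not pass, with differences from 0.27 for Cebpb to 1.14 for Csrnp1.

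In C57BL/6J smoke, the group with the most arrays, the members were set against Cyp1b1 and Nqo1, genes that rise with smoke exposure. Cyp1b1 is a target of the aryl hydrocarbon receptor. With Cyp1b1, r was 0.75 for Fos, 0.72 for Dusp1, 0.67 for Egr1 and 0.64 for Junb over 28 arrays, with adjusted permutation p of 0.000933, 0.000933, 0.000933 and 0.00175 over 20 relations. The rank correlations were lower, 0.44, 0.36, 0.42 and 0.30, and none of these 4 passed after adjustment, while r without the 2 arrays farthest from the Cyp1b1 median was 0.56, 0.52, 0.47 and 0.39. Without replicate 6, the array of this group that detected H2-Ea, r was 0.75, 0.72, 0.67 and 0.65 over 27 arrays. Ptgs2 and Ier2 were detected on 2 and 3 of the 28 arrays, so their correlations rest on undetected values and nothing is read from them. With Nqo1, r was 0.51 for Fos (rho = 0.49, adjusted permutation p = 0.0126 for r and 0.0634 for rho). In the other smoke groups, r between Cyp1b1 and Fos was 0.58 in Hhip+/-, 0.20 in Fam13a-/- and 0.42 in NZW/LacJ, with 14, 13 and 6 arrays. Among the members other than Ier2 and Ptgs2, r with Cyp1b1 ran from 0.38 for Jun to 0.75 for Fos in C57BL/6J smoke. The range was -0.50 for Jun to 0.58 for Fos in Hhip+/- and -0.66 for Jun to 0.20 for Fos in Fam13a-/-. In NZW/LacJ it was -0.62 for Junb to 0.77 for Egr1.

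Other genes of the pathways were read from lists chosen with earlier results of these data known. Of 26 measured further immediate early genes, 1 was higher with smoke in NZW/LacJ, Ccn1, and 21 had a positive difference, with a median of 0.25. In C57BL/6J 1 of the 26 was higher, Ier3, an early gene linked to cell survival, by 0.59 ± 0.10 (adjusted p = 6.65e-05), and the median was 0.00. In Fam13a-/- 1 fell, Plk2, by 0.72 (adjusted p = 0.0317). Of 19 measured genes of ERK and MAPK signalling and its feedback, 1 fell in Fam13a-/-, Elk4, by 0.77 (adjusted p = 0.0141), and 0 passed in C57BL/6J, Hhip+/- or NZW/LacJ. Hbegf, an EGF receptor ligand, was 0.42 ± 0.11 higher with smoke in C57BL/6J (adjusted p = 0.0355), 1 of 2 measured ligands. Of 10 measured genes of prostaglandin synthesis and reception, 11 partners in AP-1 and ATF dimers and 9 heat shock chaperones, 0 passed for smoke in any unit.

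Per1, a clock gene that glucocorticoids also induce, was 0.90 ± 0.20 higher with smoke in NZW/LacJ (adjusted p = 0.00986) and fell by 0.69 in Fam13a-/- (adjusted p = 0.0262). Its smoke effect was 1.18 ± 0.23 larger in NZW/LacJ than in C57BL/6J (adjusted p = 0.00591). Of 13 measured glucocorticoid and clock genes it was the 1 that passed in NZW/LacJ, and Per2 the 1 in C57BL/6J, 0.45 higher. Of 13 measured NF-kappaB targets 1 passed in NZW/LacJ, Birc3, 0.97 ± 0.26 higher (adjusted p = 0.0396).

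Cell type markers were read beside the NZW/LacJ result. Of 7 measured endothelial markers 0 had a positive difference, and Sox7 fell by 1.18 (adjusted p = 0.00976), with a summed linear signal of 10790 to 22430 in air and 9011 to 18320 with smoke. Of 6 measured heart muscle markers 6 had a positive difference and 0 passed, with a summed signal of 6294 to 28740 in air and 12190 to 45510 with smoke. Of 7 measured neutrophil markers 3 were positive and 0 passed, with sums of 3447 to 9147 and 3097 to 12530. Of 5 measured macrophage markers 2 were positive and 0 passed, with sums of 891.7 to 3389 and 834.1 to 7102. The ranges of air and smoke overlap in each list, and the part of these cell types in the members' result was not tested.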

How the data were processed

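The authors deposited an intensity and a detection p-value per probe and array, for 25697 probes, in a table named as not normalized. A second table that the authors deposited holds normalized log2 values; the sources used here do not state how, and it was used as an alternative. Main values came from neqc in limma 3.58.1 (R 4.3.3): normexp background correction from the detection p-values, offset 16, quantile normalization, log2. Probes with a detection p under 0.01 on at least 6 arrays were kept (15363), and each gene was read from its brightest kept probe (11346 genes). Symbols come from platform annotation, updated by gene ID through a RefSeq table for 23962 probes. The highest correlation between arrays was 0.992, and none was treated as a repeat.

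The 8 group means were fitted in 1 limma model with 101 residual degrees of freedom. The 13 comparisons are two-sided contrasts with Benjamini-Hochberg adjustment over all genes, and every adjusted p that is not called a permutation p is from limma. Correlations used 100000 permutations within groups (numpy 2.4.6). The number of arrays limits the precision, as SEs and intervals show.

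The members and all lists were chosen with earlier results of these data known. Genes named are the 10 members, up to 4 called genes of a list per comparison with smoke, those called by largest difference, the 8 with deviations most like the members', and Nqo1, Cyp1b1 and H2-Ea. Alternatives covered normalization, background, filters, probe choice, array weights, the share of detected probes, the arrays in doubt, the run of sample numbers and leaving out arrays. The alternative without the 3 arrays whose H2-Ea goes against the strain label was chosen after seeing the data.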

Additional observations from a re-analysis of the deposited data

Results flagged for a closer look

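The smoke effect differed between NZW/LacJ and C57BL/6J wild type for 3 members, by the test of the difference in limma: Atf3 by 1.68, Errfi1 by 1.22 and Ptgs2 by 1.001 on the log2 scale, each with an adjusted p of 0.0126, where 0.414% of all genes passed. The value for Ptgs2 is fitted on mostly undetected arrays and is neither a measured size nor a bound. With the run of sample numbers as a term the adjusted p was 0.0567 for Atf3, 0.00849 for Errfi1 and 0.714 for Ptgs2, and with median scaling 0 members passed. Among 30 pairs of a member and a group of 4 to 10 arrays, 2 held an array far from the others, where chance alone marks about 1 in 20. Ier2 read 5.64 on Fam13a-/- air replicate 5, with the next array at 4.87. Ptgs2 read 5.27 on NZW/LacJ air replicate 4, not detected, with the next array at 4.84, and that array belongs to the run of consecutive sample numbers.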

How the results depend on the processing

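No paired analysis was possible because the labels give no replicate numbers that groups share. For smoke in NZW/LacJ, where 4 members passed, 2 passed with median scaling, 2 with probes detected on 55 or more arrays (8 members tested), 0 with the 14 arrays alone and 2 with the run of sample numbers as a term, and leaving out 1 array at a time gave 1 to 6. All genes past the threshold in that comparison numbered 112, 6 with median scaling, 28 with the 55-array filter, 0 with the 14 arrays alone, 11 with the run as a term, 36 with that term and without the 2 arrays in doubt, 194 with the share of detected probes as a covariate, 288 without the 2 arrays, 284 without the 3 and 1856 with array weights. For the difference of smoke effects between NZW/LacJ and C57BL/6J, where 3 passed, the counts were 0 with median scaling, 6 with array weights, 0 in the fit of its own groups and 1 with the run as a term, and 0 to 5 when 1 array was left out. With array weights 13% of all genes passed for this difference. For the fits with 1 array left out, the number of all genes past the threshold is not given, so those member counts have no share beside them. The difference of NZW/LacJ from C57BL/6J in air had 1 member with median scaling, for which no share of all genes is given. The difference with smoke had 1 with the run as a term, against 12.7% of all genes. Array weights gave 1 member for smoke in Hhip+/- (Errfi1, -0.51), 1 in Fam13a-/- (Jun, -0.72) and 1 for the difference of the Fam13a-/- effect, where the model without weights gave 0; with weights 1.62%, 14.4% and 6.4% of all genes passed in these 3 comparisons, and 16.4% for smoke in NZW/LacJ. The share of detected probes correlated with 9 members with median scaling, and with 0 with the authors' values, without background correction and without the 4 arrays under 45% detection. With median scaling the correlation of Fos with Ier2 was 0.03 and with Jun 0.34. Directions changed in members that did not pass. Jun for smoke in NZW/LacJ was 0.0372 without the 2 arrays in doubt, 0.0372 without the 3 arrays whose H2-Ea goes against the strain label and 0.20 with the run as a term and without the 2, Junb was -0.0939 with array weights, Ier2 was -0.0285 with the run as a term, and the correlation of Fos with Ptgs2 was -0.14 with median scaling. Between the smoke groups of NZW/LacJ and C57BL/6J, the run as a term moved Junb from -0.11 to 0.25 and Ier2 from 0.30 to -0.13, and Fosb to nearly 0. Between their air groups, it moved Ptgs2, undetected in both, from 0.17 to -0.15. The cause of these changes was not tested, other than fewer arrays or genes where the alternative leaves them out. Ier2 and Ptgs2 are limited by signal near background. Where Ptgs2 was tested it is part of these member counts as a description, since only smoke arrays brought it past the filter.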
